A study of Mus musculus with 2 samples.

Results

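The genes described here are Zbtb16, which encodes the zinc finger repressor PLZF, and the nuclear receptor genes Rara, Rarb, Rarg, Rxra and Rxrb. They were chosen by gene symbol and are 6 of the 32285 genes listed in the count matrices. The cells were mouse late promyelocytes that carried the PLZF/RARA fusion, sorted from leukemic bone marrow as Cd45.2+, C-Kit+, Gr1+, Cd34- and FcγR+. In the vehicle group, mice received intraperitoneal corn oil with 10% DMSO. The retinoic acid group received 0.8 to 1 mg retinoic acid by the same route. Treatment lasted 7 days in a cohort of 3 to 5 mice, and each group is 1 single-cell 3′ RNA library, so the number of mice behind a library is not known. Both libraries carry the fusion, and no library of promyelocytes without it was compared. The animals' age and strain, and the promoter and species of the fusion construct, are not given in the sources used here.

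Retinoic acid receptors (RARs) bind all-trans retinoic acid and sit on DNA as heterodimers with retinoid X receptors (RXRs), typically on direct repeats of a short hexamer. Without ligand the RAR holds corepressor complexes at its target genes, and ligand exchanges them for coactivators. In the rare form of acute promyelocytic leukaemia with t(11;17), PLZF is fused to RARα, and the PLZF moiety has its own contacts with corepressors that retinoic acid does not release. A 3′ count assigns a read to a gene without showing the rest of the transcript. PLZF/RARA ends in its RARA part, so a read from its 3′ end, if it mapped, would count for Rara rather than Zbtb16. A count of Rara may therefore come from the normal gene or from PLZF/RARA. Normal, fusion and any reciprocal transcripts were not separated for either gene.

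After removal of low-quality barcodes, the vehicle library held 5476 cells with 99107718 unique molecular identifiers (UMIs, each counting 1 captured RNA molecule) and the retinoic acid library 7140 cells with 110088247. The median cell had 16749 UMIs in the vehicle library and 14604 in the retinoic acid library, and 11 cell barcodes occurred in both. Levels are given as CPM, the UMIs of a gene per 1000000 UMIs of the library. All 7 promyelocyte markers reached 1 CPM in the vehicle library and 6 of 7 in the retinoic acid library. Mpo was at 311.3 CPM in the vehicle library and 0.50 CPM in the retinoic acid library. In the same order Elane was at 62.8 and 7663 CPM, Prtn3 at 246.4 and 2819, and Ms4a3 at 849.9 and 2087. Ctsg, Prss57 and Cebpe were slightly lower with retinoic acid. The sort was for cells without surface Cd34, and Cd34 RNA was at 53.8 CPM in the vehicle library and 0.118 CPM in the retinoic acid library. Summed marker levels of other cell types in the vehicle and the retinoic acid library were 80.1 and 8.94 CPM for monocytes and macrophages (Adgre1 alone 73.7 and 5.15), 29.1 and 1.18 CPM for megakaryocytes (Itga2b alone 28.9 and 0.49), and 116.5 and 32.2 CPM for eosinophils. They were 89.4 and 30.9 CPM for stem and progenitor cells, 4.20 and 0.781 CPM for erythroid cells and 2.38 and 2.24 CPM for B cells. Most of the stem and progenitor difference was Cd34, while Kit was at 19.3 and 16.7 CPM and Ly6a at 13.4 and 13.4 CPM. Of the other megakaryocyte genes Gp9 had 8 and 57 counts and Gp1bb 1 and 11. The part of these in the differences below was not tested. A neutrophil maturation list of 23 genes, such as Camp, Ngp and Ltf, took 0.299% of vehicle UMIs and 6.51% of retinoic acid UMIs. Its members Anxa1 (441.2 and 55.3 CPM), Cxcr2 (16.6 and 6.82) and Cebpe (400.5 and 358.7), also a promyelocyte marker, were lower with retinoic acid. The rest were higher. Beside a list total of 2992 CPM in the vehicle library, Anxa1 and Cebpe thus weigh in the share of vehicle cells. With 1 library per group there is no test of the treatment. Intervals are 95% intervals that cover counting error only, and a treatment difference cannot be told apart from a difference between these libraries.

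Levels of Zbtb16, Rara and Rxra were lower in the retinoic acid library, those of Rarg and Rxrb were close in both libraries, and Rarb was essentially without counts. Of the 5 genes that reached 1 CPM in either library, 3 were at least 2-fold lower in the retinoic acid library and 0 were at least 2-fold higher. Over all 11294 genes with that level, 9.95% were at least 2-fold lower and 4.24% at least 2-fold higher. The median log2 ratio of the 5 genes was -1.54, beside -0.04 over all genes compared. The genes were chosen with these libraries' results known, so the share is a description and not evidence about retinoid receptors as a class.

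Zbtb16, the 5′ partner gene of the fusion (GRCm38 chromosome 9, 48654297 to 48836222, minus strand), had 967 counts in the vehicle library and 179 in the retinoic acid library. These are levels of 9.76 CPM (9.15 to 10.4) and 1.63 CPM (1.40 to 1.88). The ratio was 5.99-fold lower with retinoic acid (5.11 to 7.08), a log2 ratio of -2.58 (-2.82 to -2.35). Of all genes compared, 3.03% had a ratio as low or lower, and 4.32% were at least 4-fold lower. Zbtb16 is also known as a regulator of innate-like T cells, so lymphoid RNA was examined beside it. The summed level of 12 T and innate lymphoid markers was 15.7 CPM in the vehicle library, with 4 genes at 0, and 2.55 CPM in the retinoic acid library, with 5 at 0. Most of that was Lck, at 10.5 and 1.75 CPM, and Trdc (228 and 6 counts), Trac (156 and 20) and Il7r (79 and 21) were lower in the retinoic acid library as well. A UMI of Cd3e, Cd3d or Cd3g was present in 3 of 843 vehicle cells with a Zbtb16 UMI (0.356%) and in 0.389% of the vehicle cells without one. The same shares in the retinoic acid library were 0 of 170 cells and 0.244%. At 5000 UMIs any of the 12 markers was found in 25 of 241 vehicle cells with a Zbtb16 UMI (10.4%) and in 7.26% of the others, a difference of 3.11 points (-0.22 to 7.66). For Lck these shares were 6.22% and 4.42%, for Trdc 0.83% and 1.31%, for Trac 0.415% and 1.01%, and for Il7r 2.07% (5 cells) and 0.337% (1.74 points, 0.535 to 4.43). The share of Klrb1c was 0.83% (2 cells) and 0.0793%. The part of lymphoid RNA in the lower Zbtb16 level was not tested.

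Rara, the 3′ partner gene (chromosome 11, 98927818 to 98974942, plus strand), had 1094 counts in the vehicle library and 217 in the retinoic acid library. The levels were 11.04 CPM (10.4 to 11.7) and 1.97 CPM (1.72 to 2.25). This is 5.59-fold lower with retinoic acid (4.84 to 6.51), or -2.48 on the log2 scale (-2.70 to -2.27), and 3.17% of all genes compared were as low or lower. The 2 partner genes were lower by similar amounts: the ratio of Zbtb16 to Rara counts was 0.884 in the vehicle library and 0.825 in the retinoic acid library. That is a log2 difference of -0.10 (-0.42 to 0.22), which depends on no scaling between the libraries.

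At these low counts the difference in both genes showed mostly in how many cells had a UMI. In the vehicle library 843 cells (15.4%) had a Zbtb16 UMI and 945 (17.3%) a Rara UMI. The numbers with retinoic acid were 170 (2.38%) and 204 (2.86%). Positive vehicle cells held 1.15 Zbtb16 UMIs on average and positive retinoic acid cells 1.05, and for Rara the means were 1.16 and 1.06. The deeper a cell, the more likely a UMI: positive cells for Zbtb16 had a median of 20862 UMIs in the vehicle library and 18580 in the retinoic acid library, against 16063 and 14513 in negative cells. With every cell of at least 5000 UMIs thinned to 5000, which left out 194 vehicle cells and 481 retinoic acid cells, Zbtb16 was found in 241 of the 5282 remaining vehicle cells, which is 4.56% (4.02 to 5.16). It was found in 48 of the 6659 cells remaining with retinoic acid, 0.721% (0.532 to 0.955). Rara was found in 312 (5.91%, 5.29 to 6.58) and 58 (0.871%, 0.662 to 1.13). No cell class in these libraries is known to lack these genes, so UMIs from free RNA were not separated from those of the cell.

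**Figure D1:**
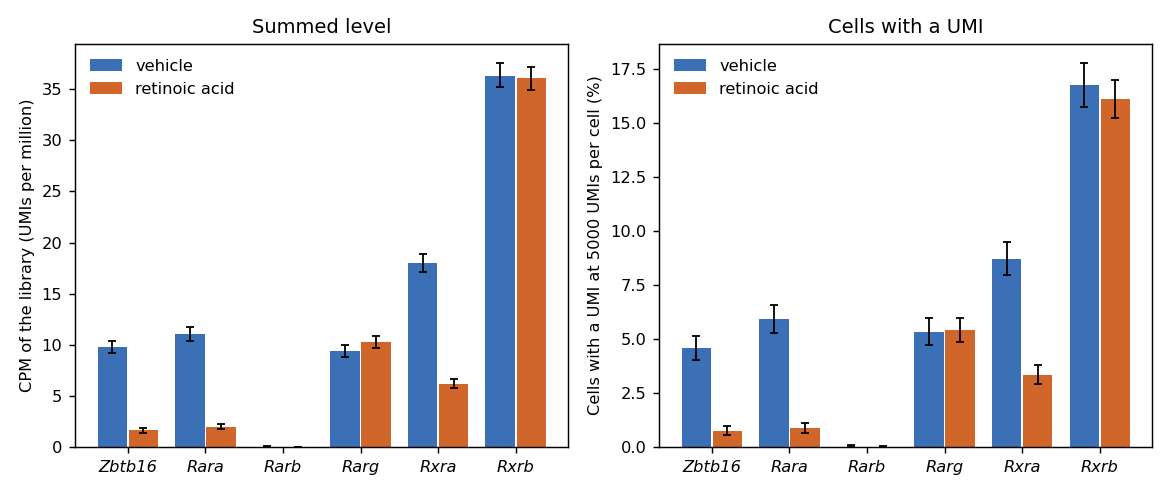
Levels of the 6 genes in the 2 libraries. Bars on the left are CPM of a gene in each library and bars on the right the percentage of cells with a UMI after thinning to 5000 UMIs, both on linear axes from 0, with 95% Poisson (left) and binomial (right) intervals that cover counting error only. Zbtb16, Rara and Rxra lie lower in the retinoic acid library (1.63, 1.97 and 6.19 CPM against 9.76, 11.04 and 18.0), while Rarg and Rxrb lie at nearly the same level in both.

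Among the other RARs, Rarb encodes RARβ, the textbook case of a gene induced by retinoic acid through a repeat in its own promoter. It had 1 count in the vehicle library and 0 in the retinoic acid library, which allows up to 0.0273 CPM in the latter. Both values lie under the 3 counts that a count of 0 allows, so no ratio is given. The gene overlaps Top2b and an antisense transcript on the opposite strand. The promoter stretches of Rarb and Rara are shown because the former is the gene with the classical element and no counts, and the latter is the fusion partner with a large difference. Both are from RefSeq (GRCm38.p6), 250 bases up to the transcript start, 5′ to 3′ on the strand of the gene, at chr14:16575477-16575726 (minus strand) for Rarb and chr11:98937446-98937695 (plus strand, 1 of several starts) for Rara. Capitals mark a direct repeat at a spacing of 5 bases, searched on both strands. Each copy may read AGGTCA, may read AGTTCA, may read GGGTCA or may read GGTTCA.

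Rarb: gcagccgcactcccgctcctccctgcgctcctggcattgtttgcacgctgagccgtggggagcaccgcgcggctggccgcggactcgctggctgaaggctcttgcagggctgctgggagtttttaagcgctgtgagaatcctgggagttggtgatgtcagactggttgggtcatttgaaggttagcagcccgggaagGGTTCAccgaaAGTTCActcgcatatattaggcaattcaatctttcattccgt
Rara: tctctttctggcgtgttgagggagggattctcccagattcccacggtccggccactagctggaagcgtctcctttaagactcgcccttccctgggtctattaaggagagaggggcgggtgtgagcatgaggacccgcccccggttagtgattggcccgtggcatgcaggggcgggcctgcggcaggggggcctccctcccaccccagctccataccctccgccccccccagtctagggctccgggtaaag

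The Rarb stretch holds a repeat, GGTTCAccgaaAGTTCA, from 53 to 37 bases before the start. Repeats with this spacing were found in 32 of 32851 RefSeq windows of 300 bases (0.0974%). Of the 11 windows of the 5 genes with an entry, the Rarb window alone held one, and none held a repeat spaced 1 or 2 bases. This is a match of letters and shows no binding. No match in the other windows says only that these letters are not in them.

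Rarg encodes RARγ, which binds the same ligand. It had 928 counts in the vehicle library and 1128 in the retinoic acid library, at 9.36 CPM (8.77 to 9.99) and 10.25 CPM (9.66 to 10.9). The log2 ratio was 0.13 (0.0034 to 0.26), and weighting every cell equally turned it to -0.05. Cells with a UMI at 5000 UMIs were 5.32% and 5.41%, a difference of 0.0863 points (-0.736 to 0.894). Rara and Rarg thus went from similar counts to unequal ones. The Rara to Rarg count ratio was 1.18 in the vehicle library and 0.192 in the retinoic acid library, a log2 difference of -2.61 (-2.87 to -2.37). These 3′ counts do not rank the proteins.

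The RXRs split in the same manner. Rxra, which encodes RXRα, had 1782 counts in the vehicle library and 681 in the retinoic acid library, at 18.0 CPM (17.2 to 18.8) and 6.19 CPM (5.73 to 6.67). It was 2.91-fold lower with retinoic acid (2.66 to 3.18), a log2 ratio of -1.54 (-1.67 to -1.41), and 6.05% of all genes compared were as low or lower. Rxrb, which encodes RXRβ, had 3603 and 3972 counts, at 36.4 CPM (35.2 to 37.6) and 36.1 CPM (35.0 to 37.2). Its log2 ratio was -0.01 (-0.08 to 0.05), and scaling by trimmed means turned it to 0.07. After thinning, 461 cells (8.73%) had an Rxra UMI with vehicle and 223 (3.35%) with retinoic acid, and for Rxrb the numbers were 885 (16.8%) and 1074 (16.1%). The Rxra to Rxrb count ratio was 0.495 and 0.171, a log2 difference of -1.53 (-1.67 to -1.38). Rxrg, the third RXR gene, had 0 counts in both libraries. At this depth 65.3% of vehicle cells and 75.4% of retinoic acid cells had no UMI of any of the 6 genes.

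The receptor genes differed among themselves in how their levels followed the called cell cycle phase, among cells of at least 5000 UMIs. In vehicle cells Rara stood at 15.9 CPM (14.7 to 17.2) in the 2788 cells called G1, 8.61 (7.02 to 10.4) in the 625 called S and 7.14 (6.39 to 7.96) in the 1869 called G2/M. Rarg had the same order between G1 and the cycling phases, at 13.5, 5.93 and 6.45 CPM. The G2/M over G1 log2 ratio was -1.15 (-1.35 to -0.96) for Rara and -1.07 (-1.28 to -0.86) for Rarg. The S and G2/M levels of each gene had overlapping intervals. Zbtb16 was not lower in the cycling phases, at 9.24, 9.86 and 10.2 CPM, with a G2/M over G1 log2 ratio of 0.15 (-0.05 to 0.35). In the less mature vehicle cells of maturation groups 1 and 2, described below, this ratio of Zbtb16 was 0.33 (0.05 to 0.62). Rxra was highest in G1 and lowest in S, at 20.99, 12.1 and 16.7 CPM, and Rxrb stayed between 35.1 and 37.6 CPM.

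In the retinoic acid library too, Rara and Rarg were higher in G1 than in G2/M. Rara was at 3.56 CPM (2.81 to 4.45) in 1859 G1 cells, 1.81 (1.33 to 2.40) in 1691 S cells and 1.23 (0.969 to 1.54) in 3109 G2/M cells. The G2/M over G1 log2 ratio of Rara was -1.53 (-2.01 to -1.05), and -0.83 (-1.57 to -0.007) in the less mature cells of maturation groups 1 and 2, described next. In group 1 alone Rara was at 1.8 CPM in G1, 2.25 in S and 1.02 in G2/M, so the order was not the same throughout. Rarg was at 15.2, 7.92 and 9.33 CPM over all groups. Rxra was not highest in G1 there, at 5.31, 5.69 and 6.57 CPM with overlapping intervals between neighbours. The mix of phases differed between the libraries, with 52.8% of vehicle cells and 27.9% of retinoic acid cells called G1. Within each phase the retinoic acid over vehicle log2 ratio was -2.62, -2.50 and -2.66 for Zbtb16, -2.15, -2.24 and -2.53 for Rara, and -1.98, -1.09 and -1.35 for Rxra (G1, S and G2/M). The lower levels were thus present in each phase. For Rarg these ratios were 0.17, 0.41 and 0.53, and for Rxrb they lay between -0.05 and -0.02.

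**Figure D2:**
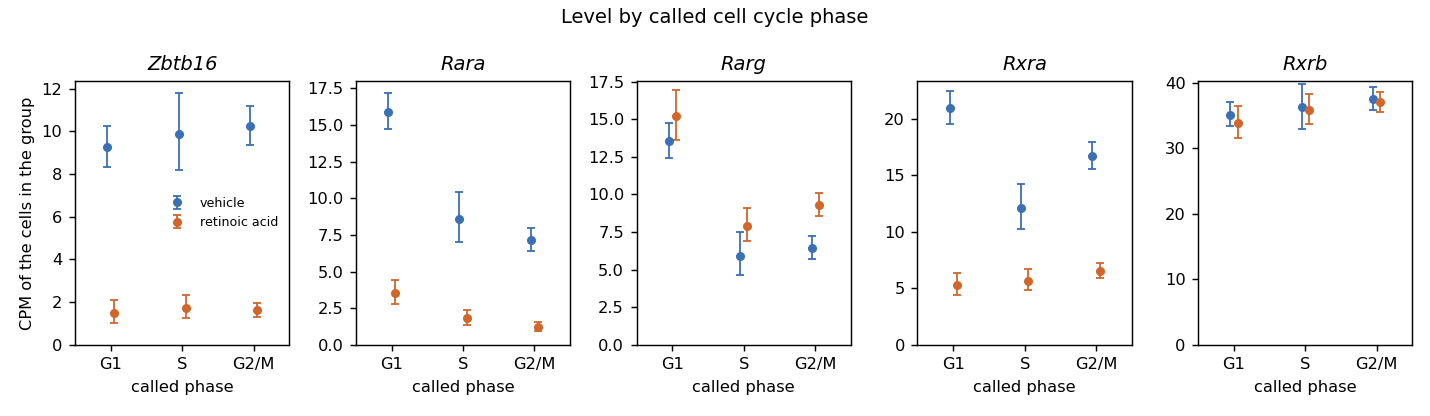
Levels by called cell cycle phase. Each panel is a gene, the x axis is the phase, the y axis is CPM over the cells of the phase on a linear scale from 0 that differs between panels, colours are the libraries, and bars are 95% Poisson intervals (counting error only). Rara and Rarg are higher in G1 than in S and G2/M in both libraries, whereas the intervals of Zbtb16 overlap across phases within each library.

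Along the maturation of cells within the retinoic acid library, Zbtb16 was lower in the most mature cells, while the level of Rara depended on the phase. Cells were ranked by the share of their UMIs in the maturation list, which holds none of the 6 genes, and divided into 4 groups of near-equal size. From the least to the most mature group, Zbtb16 had 93, 44, 28 and 10 counts, or 2.98, 1.46, 1.01 and 0.509 CPM. Group 4 over group 1 was -2.49 on the log2 scale (-3.66 to -1.61). Over all phases Rara had 45, 53, 44 and 57 counts, or 1.44, 1.76, 1.59 and 2.90 CPM, a ratio of group 4 to group 1 of 1.0 (0.42 to 1.60), with groups 1 to 3 overlapping. The higher Rara level of group 4 was in G1 cells, at 1.8 CPM in group 1 and 6.35 CPM in group 4 (1.76, 0.77 to 3.03). In S cells Rara was at 2.25 and 1.27 CPM (-0.76, -2.46 to 0.58) and in G2/M cells at 1.02 and 0.532 CPM (-0.81, -2.96 to 0.65), from 4 to 19 counts each. Group 4 also held more G1 cells, 786 of 1664 against 359 of 1665 in group 1. Zbtb16 was lower in group 4 within each phase, by log2 ratios of -2.89 (-6.35 to -0.98) in G1, -1.36 (-3.22 to -0.03) in S and -2.78 (-5.31 to -1.37) in G2/M, from 2 to 5 counts in group 4. Rxra was at 5.23 CPM in group 1 and 7.58 in group 4, a log2 ratio of 0.54 (0.21 to 0.86). Rxrb was at 39.7 and 27.6 CPM, a ratio of -0.52 (-0.67 to -0.38), and Rarg at 9.34 and 11.7 CPM (0.33, 0.07 to 0.58). Within phases the Rarg ratio was 0.08 (-0.34 to 0.53) in G1, -0.08 (-0.72 to 0.53) in S and 0.28 (-0.14 to 0.68) in G2/M.

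The maturation genes fill much of the RNA of group 4, where their median share was 20.6% of UMIs. With those genes left out of the totals the group 4 over group 1 log2 ratios were -2.16 for Zbtb16, 1.33 for Rara, 0.66 for Rarg, 0.87 for Rxra and -0.19 for Rxrb. In the vehicle library the median share reached 0.40% in the highest group. With all genes in the totals the ratios there were -0.21 (-0.48 to 0.07) for Zbtb16 and 0.35 (0.10 to 0.60) for Rara. For Rarg the vehicle ratio was 0.50 (0.24 to 0.77), and for Rxra and Rxrb the intervals included 0. Vehicle group 4 also held more G1 cells, 844 of 1320 against 577 of 1321 in group 1. In vehicle groups 1 and 4 Rara was at 14.0 and 17.2 CPM in G1, 9.86 and 7.9 in S, and 7.76 and 7.69 in G2/M. Rarg was at 12.3 and 16.9, 5.73 and 6.23, and 6.56 and 6.05 CPM in the same order. The part of the phase mix in the vehicle ratios was not tested.

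The least mature retinoic acid cells had lower levels of the partner genes than vehicle cells. At or below the vehicle library's 95th percentile of the maturation share (0.68%) lay 571 retinoic acid cells. The median share was 0.44% in them and 0.18% in all vehicle cells, so maturation was not matched. In the 571 cells Zbtb16 had 36 counts at 3.44 CPM (2.41 to 4.76) and Rara 14 counts at 1.34 CPM (0.732 to 2.25). Against all vehicle cells these were log2 ratios of -1.49 (-2.03 to -1.03) and -2.98 (-3.90 to -2.27). Rxra was at 5.26 CPM (-1.76), Rarg at 9.46 and Rxrb at 38.5. Their Zbtb16 level lay above the 1.42 CPM of the more mature retinoic acid cells.

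**Figure D3:**
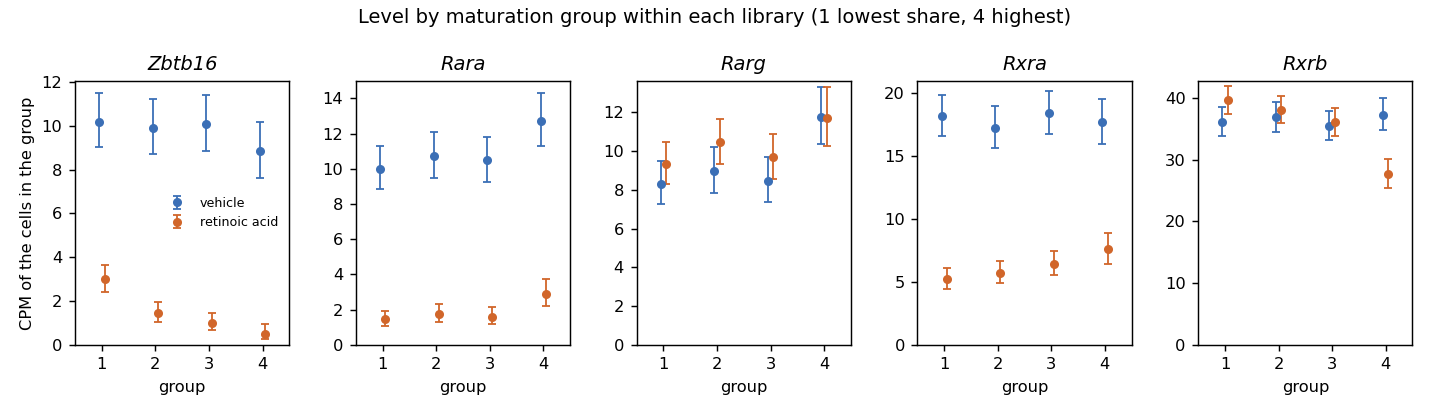
Levels by maturation group. Each panel is a gene, the x axis is the group of cells within a library from the least (1) to the most mature (4), the y axis is CPM over the cells of the group on a linear scale from 0 that differs between panels, colours are the libraries, and bars are 95% Poisson intervals (counting error only). In the retinoic acid library Zbtb16 goes from 2.98 to 0.509 CPM while Rara, over all phases, goes from 1.44 to 2.90 CPM.

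Vehicle cells also differed by their content of Cpa3, a mast cell and basophil protease, and Mpo, the myeloperoxidase of promyelocyte granules. At 5000 UMIs, 2549 vehicle cells had a UMI of Cpa3 alone, 636 of Mpo alone, 519 of both and 1578 of neither. Rara was at 13.6 CPM (12.5 to 14.7) in the Cpa3 cells and 6.03 CPM (4.80 to 7.49) in the Mpo cells, with 10.2 CPM in cells with both and 9.45 CPM in cells with neither. Mpo over Cpa3 cells gave a log2 ratio of -1.16 (-1.52 to -0.83), and -1.0 (-1.68 to -0.45) among G1 cells alone. Rxra followed at 21.04 and 13.0 CPM (-0.69, -0.93 to -0.46), as did Rarg at 10.4 and 6.55 CPM (-0.67, -1.02 to -0.34). Among G1 cells alone Rxra was at -0.64 (-1.15 to -0.21), and Rarg was not compared there. At 5000 UMIs a Rarg UMI was in 5.53% of Cpa3 cells (4.68 to 6.49) and 4.56% of Mpo cells (3.07 to 6.48), with overlapping intervals. Zbtb16 did not differ beyond counting error, at 9.87 and 9.19 CPM (-0.10, -0.40 to 0.19). With retinoic acid 6655 of 6659 cells had neither UMI, so the comparison could not be made there. The summed level of 8 basophil and mast cell markers was 739 CPM in the vehicle library, with 2 at 0, and 66.4 CPM in the retinoic acid library, with 3 at 0. Most of the vehicle sum was Cpa3, at 569.9 and 0.0999 CPM, which also defines the classes of cells here. Mcpt8, at 121.7 and 63.1 CPM, made up most of the retinoic acid sum. Gata2 was at 43.2 and 1.15 CPM, and Ms4a2 alone was higher with retinoic acid, at 1.45 and 2.05 CPM. The part of these markers in the difference between the libraries was not tested. Among cells with neither UMI the log2 ratios were -2.62 for Zbtb16, -2.36 for Rara and -1.37 for Rxra.

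Cells nearly without mitochondrial RNA (at most 0.1% of UMIs) had few Zbtb16 counts, among cells of at least 5000 UMIs. In the vehicle library 136 such cells held 4 counts, 2.36 CPM (0.642 to 6.03), against 9.91 CPM in the rest, a log2 ratio of -1.90 (-3.95 to -0.71). With retinoic acid 411 such cells held 2 counts, 0.357 CPM (0.0432 to 1.29), against 1.68 CPM, a ratio of -1.92 (-5.29 to -0.36). Rara did not share this, at 11.2 against 10.9 CPM and 1.61 against 1.85 CPM. The counts are few. Without such cells at any depth the log2 ratio of the libraries was -2.55 for Zbtb16 and -2.47 for Rara.

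Within vehicle cells, having a UMI of Zbtb16 said little about having one of Rara. At 5000 UMIs 15 of 241 Zbtb16 cells had a Rara UMI (6.22%), against 5.89% of the others, a difference of 0.332 points (-2.18 to 4.17). With retinoic acid 0 of the 48 Zbtb16 cells and 0.877% of the others had one, too few cells to compare. Rara cells more often had a Cpa3 UMI than other vehicle cells, at 66.7% against 57.5% (a difference of 9.12 points, 3.55 to 14.3), and less often an Mpo UMI, at 12.2% against 22.5% (-10.3 points, -13.7 to -6.04). With other depths, another random draw or G1 cells alone these differences ranged from 5.14 to 11.4 points for Cpa3 and from -9.84 to -3.49 points for Mpo, with intervals that reached 0 for Cpa3 in G1 cells and for Mpo in G1 cells and the other draw. Zbtb16 cells had Cpa3 in 56.4% against 58.2% and Mpo in 21.6% against 21.9%. An excess of Rxrb among Rara cells of 9.44 points turned to -3.53 points with another random draw, so it is no stable feature of these data.

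To place each gene among all others, both libraries were divided by maturation group and phase into 24 groups of 136 to 879 cells. Its level as log2(CPM + 1) was correlated over the 24 groups with the levels of 9145 genes. The groups come from only 2 libraries and share their depth, so the coefficients carry no test. They pool both libraries, so a difference between the libraries enters them, and for the genes listed next no coefficient within a library is given. Zbtb16 was most like Cd48, Txndc5, Lgals1, Hsd3b7 and Tmem156 (Pearson r of 0.982 to 0.985), each lower in the retinoic acid library. Rara was most like Lat2, Plek, Clec4e, Itgb7 and Selplg (0.961 to 0.971), and Rxra most like Dmxl2, Cdkn2a, Esyt1, Aqp9 and Cdh3 (0.934 to 0.953). These genes too were each lower in the retinoic acid library. Rarg was most like Map1lc3b, Sertad3, Abhd18, Tcp11l2 and Tmem71 (0.879 to 0.901), and Rxrb like C1qtnf6, Mrpl32, Uba1, Ptdss2 and Plpbp (0.869 to 0.904). Between Zbtb16 and Rara r was 0.816 over the 24 groups but -0.138 over the 12 vehicle groups and -0.151 over the 12 retinoic acid groups. The pooled value was seen within neither library. Between Rara and Rarg r was -0.018 pooled, 0.912 within vehicle groups and 0.541 within retinoic acid groups.

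The neighbours of the partner genes in the genome did not all differ with them. Within 250 kb of Rara, 3 of 12 genes at 1 CPM or more were at least 2-fold lower with retinoic acid, 0 were higher, and the median log2 ratio was 0.03. Over all genes compared 9.95% were that much lower and 4.24% higher. The closest, Cdc6, a replication licensing factor whose start lies 20 kb upstream, was at 14.1 and 21.2 CPM (0.58). Wipf2 was at 10.2 and 10.1 CPM (-0.02) and Top2a, encoding topoisomerase IIα, at 167 and 199 CPM (0.25). The 3 lower genes were Igfbp4, an insulin-like growth factor binding protein starting 113 kb downstream, Tns4 and Nr1d1. Igfbp4 had 7535 counts in the vehicle library and 91 in the retinoic acid library, 76.0 and 0.827 CPM, a log2 ratio of -6.52 (-6.84 to -6.23). Tns4 had 159 and 4 counts (-5.30, -7.36 to -4.08), and Nr1d1 101 and 53 (-1.08, -1.59 to -0.59). In vehicle cells an Igfbp4 UMI was as frequent with a Rara UMI (26.3%) as without one (26.3%). The remaining neighbours, Thra, Msl1, Casc3, Med24, Psmd3 and Smarce1, lay between -0.06 and 0.48.

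Within 250 kb of Zbtb16, 1 of 5 genes with at least 1 CPM was at least 2-fold lower, 0 were higher, and the median log2 ratio was -0.26. Over all genes compared 9.95% were at least 2-fold lower and 4.24% higher, and with 5 genes the shares cannot be told apart. The lower gene was Rexo2, an oligoribonuclease, at 494.5 and 238.6 CPM (-1.05, -1.07 to -1.03). Usp28 and Zw10, upstream of Zbtb16, were at -0.26 (-0.47 to -0.06) and 0.29 (0.18 to 0.40). Rbm7 was at 0.01 and Gm5617 at -0.39. None of the 5 reached the ratio of Zbtb16 itself.

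**Figure D4:**
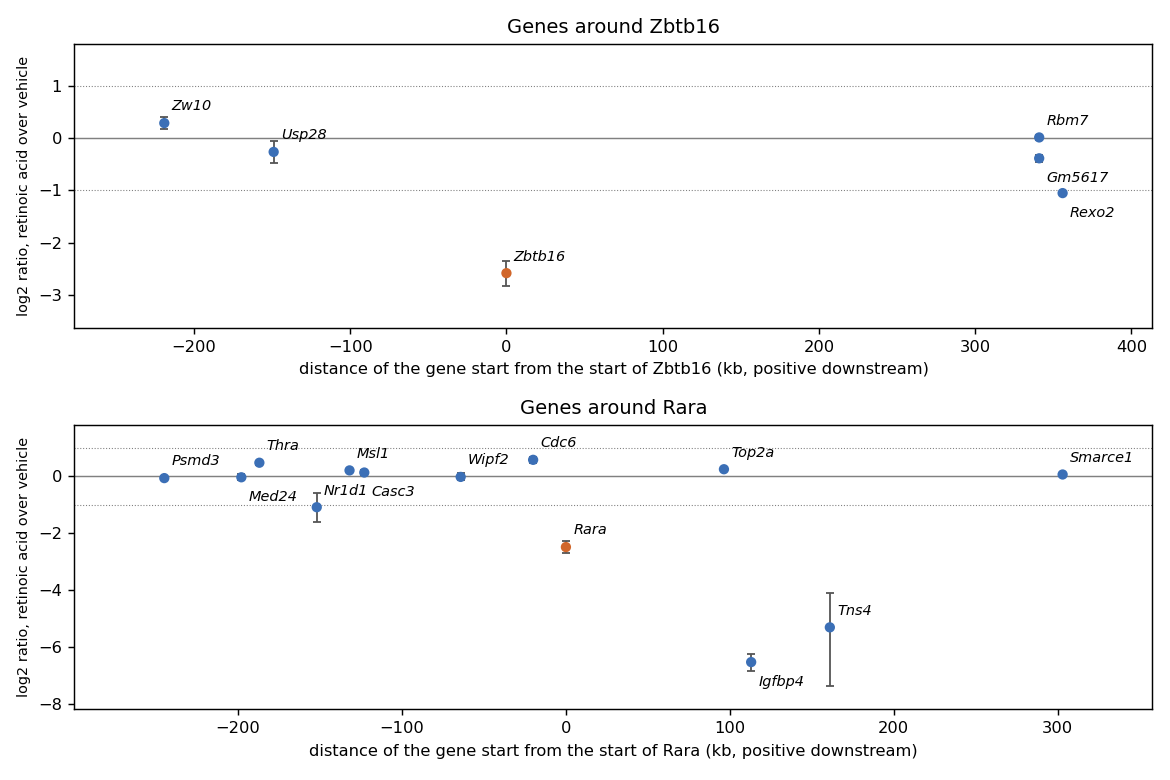
Genes around Zbtb16 and Rara. The x axis is the distance of a gene's start from the start of the named gene in kb, positive downstream, the y axis is the log2 ratio of retinoic acid over vehicle, bars are 95% intervals (counting error only), and dotted lines mark 2-fold. Around Rara most genes lie near 0 while Igfbp4 (-6.52) and Tns4 (-5.30) lie below Rara, and around Zbtb16 only Rexo2 passes 2-fold.

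The cofactors of these receptors differed little between the libraries. All 10 corepressor genes, among them Ncor1, Sin3a and Hdac3, were within 2-fold, with a median log2 ratio of 0.17. All 8 coactivator genes, among them Ncoa1, Ep300 and Crebbp, were within 2-fold as well, with a median of 0.23. The median over all genes was -0.04, and 14.2% of all genes compared were at least 2-fold different in either direction. Of 13 other nuclear receptors that pair with RXR or are close kin, 7 had at least 1 CPM: 1 was higher and 0 lower, with a median of 0.26. The higher was Nr1h3, which encodes the sterol sensor LXRα, with 25 and 119 counts or 0.252 and 1.08 CPM (2.08, 1.47 to 2.78). It reached 1 CPM only in the retinoic acid library, so the counts of higher and lower genes depend on the limit. Under the limit Vdr had 23 and 4 counts (-2.54, -4.67 to -1.13) and Nr4a1 82 and 41 (-1.14, -1.73 to -0.59). Nr1i3, also under it, had 8 and 18 counts (0.97, -0.26 to 2.43).

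Among 10 partners of PLZF, 1 was lower, 0 were higher and 9 were within 2-fold, with a median of -0.01. Over all genes compared 9.95% were at least 2-fold lower and 4.24% at least 2-fold higher. The lower was Gata2, a transcription factor of progenitor and mast cell programmes, with 4282 and 126 counts or 43.2 and 1.15 CPM (-5.23, -5.51 to -4.98). Cul3, the ubiquitin ligase scaffold that PLZF binds, was at 63.7 and 86.8 CPM (0.45). Of 13 genes that handle retinoids, 3 had at least 1 CPM, 2 of them higher and 0 lower. Of these, Cyp26a1 reached 1 CPM only in the retinoic acid library. Under the limit Fabp5 had 84 and 25 counts (-1.88, -2.61 to -1.24), and the others had at most 12 counts in a library. Cyp26a1, which hydroxylates retinoic acid for clearance, had 8 and 253 counts or 0.0807 and 2.30 CPM (4.75, 3.83 to 6.06). Dhrs3, a retinal reductase, had 195 and 2017 counts or 1.97 and 18.3 CPM (3.22, 3.01 to 3.44). These are textbook targets of retinoic acid, and they were higher in the library in which Rara and Rxra were lower. The other, Rdh10, a retinol dehydrogenase, was at 2.48 and 2.25 CPM (-0.14).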

How the data were processed

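Single-cell 3′ libraries (Chromium v2 chemistry, per the labels' protocols) of 1 vehicle and 1 retinoic acid sample were deposited by the authors as raw UMI counts per gene and barcode. Cell Ranger 4.0.0 and the builds mm10 and GRCm38.p4 are named in the submitters' processing notes. Whether fusion sequence was added to the reference is not given in the sources used here.

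Cells with at least 1000 UMIs, 500 genes and at most 10% mitochondrial UMIs were kept (310 vehicle and 276 retinoic acid barcodes removed). No doublets were removed. Counts were summed per library or cell state and given as CPM with exact Poisson intervals. Log2 ratios add 0.5 counts and carry exact binomial intervals conditional on the sum. Shares carry Clopper-Pearson intervals and their differences Newcombe intervals, after thinning each cell of at least 5000 UMIs to 5000. Cells of a library are not replicates, so no test was made. A count of 0 is read as allowing 3 counts. Phases came from scanpy 1.11.5 scores. Positions and neighbours came from GENCODE M21 (GRCm38), which held 32158 of the 32285 gene identifiers, and promoter windows from RefSeq. Trimmed-mean scaling with edgeR 4.0.16, with other filters, depths and subsets of cells, served as alternatives. The ratio calculation was tested on simulated data.

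Named genes were the 6 genes, list genes that reached 1 CPM in either library (values for those at least 2-fold different), genes within 250 kb of Zbtb16 and Rara with that level, and the 5 genes most like each gene with at least 200 counts. Cofactors named within 2-fold, Cul3 and Rdh10 were picked as examples after their values were seen. The genes and lists were chosen with earlier results of these data known.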

Additional observations from a re-analysis of the deposited data

How the results depend on the processing

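Of 154 recomputed values, 109 stayed within their counting interval or within 1.5 times. The sign changed in 19: differences of Rarg and Rxrb between libraries, of Rara and Rarg between maturation groups and of Zbtb16 between phases in the retinoic acid library, and co-detection of Rara with Rarg or Rxrb and of Zbtb16 with Cpa3. Between the libraries, Zbtb16, Rara and Rxra stayed lower with retinoic acid under every alternative run. The 571 least mature retinoic acid cells against all vehicle cells gave log2 ratios of -1.49 for Zbtb16, -2.98 for Rara, -1.76 for Rxra and 0.0822 for Rxrb. G1 cells alone gave -2.15 for Rara and -1.98 for Rxra, and cells without Cpa3 or Mpo UMIs gave -1.37 for Rxra. Rarg was -0.0518 with equal weight for every cell and 0.32 at the vehicle mix of phases. Rxrb was 0.0693 with trimmed-mean scaling and 0.0819 with the maturation list left out.

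The difference in shares of cells depends on depth. At 3000 UMIs, 10000 UMIs and without thinning it was -2.39, -7.85 and -13 points for Zbtb16, -3.36, -8.45 and -14.4 for Rara, and -3.56, -10.4 and -18.3 for Rxra. Another random draw gave -6.28 points for Rxra. Without thinning, Rarg was at -1.06 and Rxrb at -5.73 points. Genes at least 2-fold different numbered 923 at a limit of 5 CPM, 448 at 20 CPM and 6081 without a limit, against 1603 at 1 CPM.

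In the retinoic acid library, group 4 over group 1 was 1.76 for Rara and 1.23 for Rxra in G1 cells, -1.36 for Zbtb16, -0.755 for Rara, -0.0791 for Rarg and -0.355 for Rxrb in S cells, -0.808 for Rara in G2/M cells, and 0.66 for Rarg, 0.87 for Rxra and -0.19 for Rxrb with the maturation list left out. G2/M over G1 of Rara was -0.83 in maturation groups 1 and 2. Rxrb among Rara cells turned to -0.659 points at 3000 UMIs, -2.08 at 10000 and -3.53 with another draw, and Rarg among Rara cells to -0.43 at 3000. Mpo among Rara cells was -5.56 points at 10000 UMIs, -3.49 with another draw and -4.52 in G1 cells, and Cpa3 among Zbtb16 cells 4.64 points in G1 cells. Of these alternatives, the subsets of cells by phase, maturation and Cpa3 or Mpo, and all those on maturation groups, phase ratios, co-detection and cells nearly without mitochondrial RNA were chosen after seeing the data. The causes were not tested. No paired analysis was possible because there is a single library for vehicle and a single library for retinoic acid.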
